A study of Homo sapiens with 16 samples.

Results

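Of the 16 RNA-seq libraries of the study, 4 were compared here, namely 2 libraries of HSB-2 cells carrying USP7 shRNA-4057 and 2 carrying USP7 shRNA-4058. They were chosen by their sample titles alone, and the comparison covered all genes of the count table. HSB-2 is a human T-cell acute lymphoblastic leukemia (T-ALL) line, labelled TAL1+ in every group, including the controls. Each short hairpin RNA was delivered by lentivirus, and the study's methods place the targets in different exons of USP7. The HSB-2 controls were 2 libraries treated with scrambled siRNA, as the labels name it, and 2 wild-type libraries (WT). The same 4 groups, 2 libraries each, were made in Jurkat, a second T-ALL line labelled TAL1+, and its 4 hairpin libraries served as an independent look at the same hairpin pair. Transduced cells were either sorted for GFP or selected with puromycin, and which was done for which line is not given in the sources used here. The labels do not say whether the libraries of a group came from separate cultures, so every p-value measures the spread between these libraries, which may be technical. Both lines are single established lines, so the values describe these cells only.

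USP7 is a deubiquitylase: it removes ubiquitin from substrates such as MDM2, p53, DNMT1 and components of Polycomb complexes and so sets how long they last. A short hairpin RNA is processed by Dicer into a small interfering RNA that guides Argonaute to matching transcripts. A hairpin can also act on transcripts other than its target through partial pairing, and so knock-downs are commonly made with more than one hairpin. The comparison asks which genes differ between libraries in which different hairpins target the same gene.

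The deposited values were read counts per gene. The hairpin libraries held 93942513 and 112138109 counts with shRNA-4057, and 231326746 and 76602847 with shRNA-4058, so the depth of the shRNA-4058 libraries bracketed that of the others. Of 57820 genes in the table, 39330 had a count in at least 1 of the 16 libraries and 23063 passed the filter on low counts and were tested. Levels are given in CPM, the count relative to the size of the library, scaled by the trimmed mean of M values (TMM), which compares a gene between libraries but not 1 gene with another. A log2 difference is shRNA-4057 minus shRNA-4058, so that a positive value is higher with shRNA-4057. Its standard error (SE) and the adjusted p come from edgeR's quasi-likelihood test with Benjamini-Hochberg adjustment over all 23063 genes, and a gene was called at an adjusted p under 0.05. In bulk RNA, a change in the share of cells and a change in RNA per cell cannot be told apart.

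USP7 (chr16:8985954-9069185, minus strand, GRCh37, as are the other gene positions unless stated) was lower with both hairpins than in the controls, and the hairpins differed little from each other. Its level was 144 and 149 CPM with shRNA-4057 and 162 and 156 CPM under shRNA-4058, against 227 and 220 CPM in the scrambled and 237 and 243 CPM in the wild-type libraries. The libraries of the hairpins did not overlap, and all 4 lay below all 4 controls. The means were 63.2% and 68.5% of the mean of the 4 controls. The difference between the hairpins was -0.12 on the log2 scale (SE 0.035, edgeR adjusted p = 0.014). This small difference was not called without replicate 1 of shRNA-4057 (log2 difference -0.094) or without replicate 1 of shRNA-4058 (-0.091). Without replicate 2 of these hairpins it was -0.146 and -0.195. It was also not called when the 4 HSB-2 hairpin libraries were thinned to the same depth (edgeR adjusted p = 0.0566). The other libraries of that fit were not thinned. In Jurkat the hairpins were far from equal: USP7 stood at 140 and 145 CPM with shRNA-4057 and at 244 and 242 CPM with shRNA-4058, a log2 difference of -0.77 (SE 0.035, edgeR adjusted p = 1.13e-15). The test of the hairpin difference in HSB-2 against that in Jurkat gave 0.65 on the log2 scale (SE 0.050, adjusted p = 8.12e-11).

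Although USP7 differed little, many genes differed between the hairpins in HSB-2, most of them by a small amount. A total of 5739 genes were called (24.9% of those tested). Of these, 2425 were higher with shRNA-4057 (10.5%) and 3314 were higher with shRNA-4058 (14.4%). Their median size was 0.30 on the log2 scale, and 4472 of them differed by less than 1.5-fold. At least a 2-fold difference was met by 561 called genes (2.43%), with 233 higher with shRNA-4057 (1.01%) and 328 higher with shRNA-4058 (1.42%). Most of the 2-fold genes were barely expressed: their median level was 0.241 CPM for those higher with shRNA-4057 and 0.458 CPM for those higher with shRNA-4058, and 88 of the 561 reached a mean of 2 CPM in the higher hairpin group. Those 88 were uneven, 17 higher with shRNA-4057 and 71 higher with shRNA-4058. Protein-coding genes made up 23.2% of the 2-fold genes higher with shRNA-4057 and 73.2% of those higher with shRNA-4058, against 61.4% of all genes tested. The number called higher with shRNA-4057 depended on the libraries: it was 1564 without replicate 2 of shRNA-4057 and 1134 without replicate 2 of shRNA-4058, which is the shallowest of the hairpin libraries, and the 2-fold count fell from 233 to 141 without the latter.

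**Figure D1:**
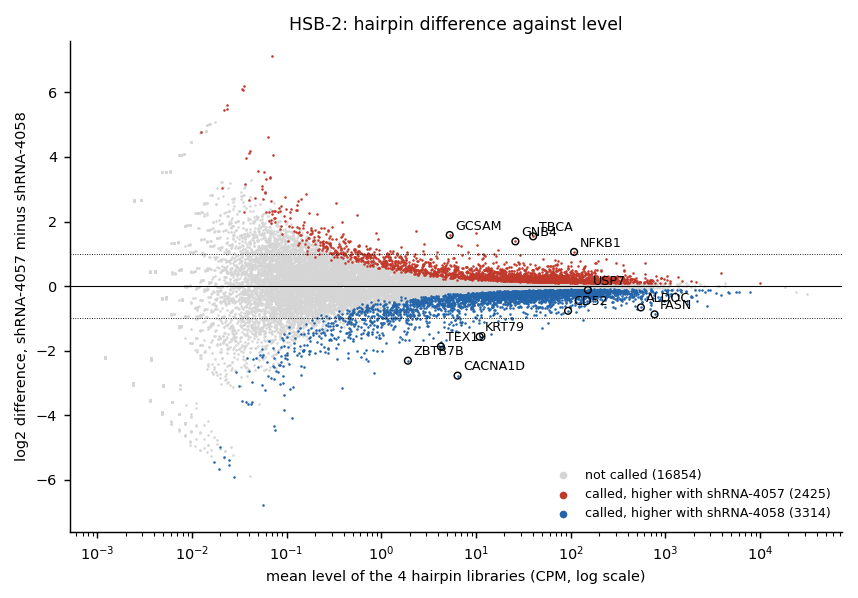
Each point is a gene tested in HSB-2, with the mean level of the 4 hairpin libraries in CPM on a log axis and the log2 difference of shRNA-4057 minus shRNA-4058; genes with no count in these 4 libraries are not drawn, and dotted lines mark 2-fold. The 2425 genes called higher with shRNA-4057 are red and the 3314 called higher with shRNA-4058 are blue; large differences crowd at low levels, while TBCA, NFKB1 and GNB4 stand alone at higher levels.

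The 2-fold genes were also set beside the 4 HSB-2 control libraries, as a description with no test. A hairpin was counted as above or below the controls where both of its libraries were, and otherwise as overlapping them, which includes genes with 1 library outside their range. Among the 233 genes higher with shRNA-4057, the commonest arrangement, with 142 genes, had shRNA-4057 overlapping the controls and shRNA-4058 below all of them. Both libraries of shRNA-4057 were above all controls and both of shRNA-4058 below them for 22 genes. Among the 328 genes higher with shRNA-4058, the commonest arrangement, with 157 genes, had shRNA-4057 overlapping the controls and shRNA-4058 above all of them, while 57 had shRNA-4057 below and shRNA-4058 overlapping. In both sets the libraries of shRNA-4058 lay wholly above or below the controls for more genes than those of shRNA-4057. The same held over all 23063 genes tested, and the sets were chosen by these same hairpin libraries. Over all 23063 genes, both hairpins overlapped the controls for 36.3%. With shRNA-4057 overlapping, shRNA-4058 was below the controls for 10.6% of all genes and above them for 9.80%. With shRNA-4058 overlapping, shRNA-4057 was below them for 5.89% and above them for 4.74%.

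Among protein-coding genes above 2 CPM that were higher with shRNA-4057, the difference that stood out most for its level was TBCA (chr5:76986991-77164604, minus strand), which encodes tubulin folding cofactor A, a chaperone of beta-tubulin. TBCA was at 58.3 and 61.3 CPM with shRNA-4057 but 20.1 and 21.2 CPM with shRNA-4058, against 56.1 to 62.9 CPM over the 4 controls. The shRNA-4057 libraries thus lay among the controls and the shRNA-4058 libraries at 34.8% of their mean. The log2 difference was 1.54 (SE 0.048, edgeR adjusted p = 2.60e-18). In Jurkat, TBCA was 72.1 and 73.4 CPM with shRNA-4057, as against 38.2 and 37.5 CPM under shRNA-4058 and 92.8 to 102 CPM in the 4 controls. There too the lower level was that of shRNA-4058, with a log2 difference of 0.94 (edgeR adjusted p = 2.99e-15), and there shRNA-4057 also lay below the controls.

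NFKB1 (chr4:103422487-103538459, plus strand) encodes p105, the precursor of the NF-kappaB subunit p50. It stood at 150 and 145 CPM with shRNA-4057 but 71.8 and 69.5 CPM with shRNA-4058 (log2 difference 1.06, SE 0.038, edgeR adjusted p = 6.25e-17). The controls differed from each other on this gene: the scrambled libraries were at 67.5 and 68.8 CPM and the wild-type libraries at 135 and 136 CPM. Accordingly, shRNA-4058 sat just above the scrambled and shRNA-4057 just above the wild-type libraries. In Jurkat the hairpin difference had the same sign, 68.8 and 70.0 CPM with shRNA-4057 against 45.2 and 45.4 CPM with shRNA-4058 (log2 difference 0.61, edgeR adjusted p = 7.53e-13), with controls of 65.3 to 67.3 CPM.

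GNB4, a beta subunit of heterotrimeric G proteins, was at 37.02 and 38.6 CPM with shRNA-4057 against 14.5 and 14.4 CPM with shRNA-4058, both below the controls of 41.4 to 69.1 CPM (log2 difference 1.39, SE 0.061). ARSB, the lysosomal arylsulfatase B, had the same order, at 9.76 and 9.70 CPM against 4.08 and 4.24 CPM, below controls of 15.9 to 17.6 CPM (log2 difference 1.23, SE 0.084). INPP4B, a phosphoinositide phosphatase, was at 14.9 and 13.5 CPM against 7.87 and 6.13 CPM, again with both hairpins below the controls of 17.8 to 21.1 CPM. For these 3 genes, both hairpins were lower than the controls and shRNA-4058 was the lower of the pair. HRH2, the histamine H2 receptor, and GUCY1A2, a subunit of soluble guanylate cyclase, had log2 differences of 1.28 and 1.29, with shRNA-4058 again below the controls.

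Other genes stood above the controls with shRNA-4057. SAMHD1, the dNTP hydrolase that limits retroviruses, was at 15.4 and 16.9 CPM with shRNA-4057 and 8.19 and 8.46 CPM under shRNA-4058, against 1.27 and 1.10 CPM in the scrambled and 7.34 and 6.31 CPM in the wild-type libraries. GCSAM, a germinal center signaling protein, was at 7.51 and 8.17 CPM with shRNA-4057 against 2.30 and 3.17 CPM with shRNA-4058, and at no more than 1.97 CPM in any control (log2 difference 1.58, SE 0.12). Both hairpins were therefore above every control for these genes, and shRNA-4057 was the higher. HDAC9, a class IIa histone deacetylase, TAF9B, a TAF9-related subunit of transcription complexes, and GPR18, a G protein-coupled receptor, were above all controls with shRNA-4057 and overlapped them with shRNA-4058, with log2 differences of 1.27, 1.01 and 0.99. MPZL3, a membrane adhesion protein, and NID2, the basement membrane protein nidogen-2, were above all controls with shRNA-4057 and below all of them with shRNA-4058 (log2 differences 1.70 and 0.97).

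Among genes higher with shRNA-4058, the largest difference by the same selection was that of CACNA1D (chr3:53362990-53847760, plus strand), a pore subunit of L-type calcium channels. CACNA1D stood at 11.3 and 11.1 CPM with shRNA-4058 and at 1.73 and 1.55 CPM with shRNA-4057, a 6.81-fold difference (log2 difference -2.77, SE 0.19, edgeR adjusted p = 1.90e-11). The 4 controls were at 0.285 to 0.741 CPM, so that both hairpins were above them. It overlaps CHDH on the other strand, and the strand setting of the counting is not given in the sources used here. In Jurkat it was below 1 CPM in every library and was not called (edgeR adjusted p = 0.0883).

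ZBTB7B encodes ThPOK, the transcription factor known for CD4 lineage commitment. It was at 3.25 and 3.11 CPM with shRNA-4058 and at 0.642 and 0.647 CPM with shRNA-4057, against controls of 0.655 to 0.925 CPM (log2 difference -2.31, SE 0.15, edgeR adjusted p = 3.79e-12). TLE6, of the Groucho family of corepressors, was at 6.64 and 7.05 CPM with shRNA-4058, 2.05 and 1.77 CPM with shRNA-4057 and 0.740 to 1.42 CPM in the controls. KRT79, a type II keratin, was at 17.3 and 15.4 CPM with shRNA-4058 and 5.63 and 5.47 CPM with shRNA-4057, against 1.56 and 1.96 CPM in the scrambled and 5.33 and 4.33 CPM in the wild-type libraries. In these 3 genes the libraries of shRNA-4058 lay above every control. ZBTB7B, like CACNA1D, overlaps another gene on the other strand (DCST2).

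DAB2IP, a Ras GTPase-activating protein, was at 6.49 and 6.58 CPM with shRNA-4058 and 2.33 and 1.62 CPM with shRNA-4057, on either side of controls of 2.57 to 2.86 CPM. BAIAP3, a Munc13-related regulator of vesicle release, was at 7.02 and 7.92 CPM against 2.10 and 2.52 CPM, with the controls between them at 3.33 to 4.43 CPM. CPNE5, a copine, gave the same arrangement at 5.34 and 5.21 CPM against 1.61 and 1.83 CPM. The other genes of this selection were at 2 to 5 CPM with shRNA-4058: ZFYVE28, TMEM59L, COX6B2, ATP1B2 (a sodium-potassium ATPase subunit) and the chemokine receptor CCR1 were above all controls there, with log2 differences between -1.73 and -1.62. KREMEN2, a Dickkopf receptor of the Wnt pathway, was within the controls with shRNA-4058 and below them with shRNA-4057 (log2 difference -1.58). TEX19, a germ cell gene, was at 6.85 and 6.55 CPM with shRNA-4058 and 1.81 and 1.86 CPM with shRNA-4057, while the scrambled libraries were at 9.30 and 9.78 CPM and the wild-type libraries at 2.68 and 2.29 CPM. Reads of overlapping genes could not be told apart where strand was not used in counting, which leaves the values of GCSAM, GNB4, INPP4B, NID2, SAMHD1, TEX19, TMEM59L, BAIAP3 and KREMEN2 uncertain, as each overlaps a gene on the other strand, and COX6B2 overlaps one on its own strand.

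**Figure D2:**
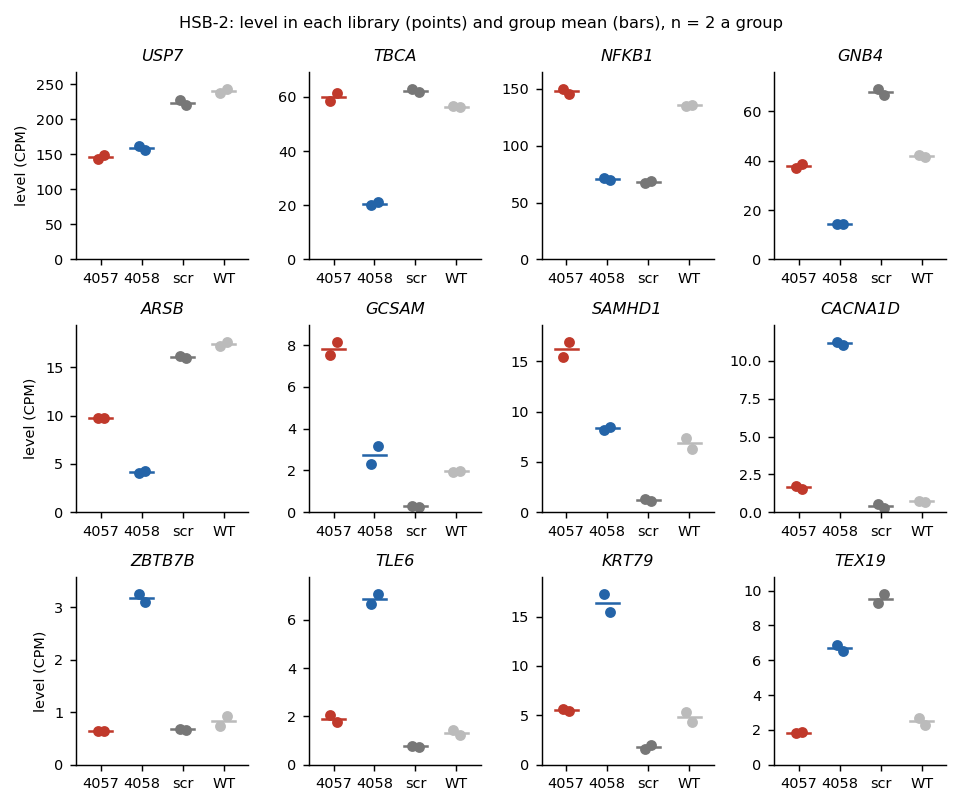
Each panel is 1 gene in HSB-2, with the level in CPM on an axis starting at 0; points are the 2 libraries of a group (the hairpins, scr for scrambled, WT for wild-type) and bars their mean. USP7 is nearly level between the hairpins, while TBCA is at 20.1 and 21.2 CPM with shRNA-4058 alone and CACNA1D at 11.3 and 11.1 CPM with shRNA-4058.

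The pathway that separated the hairpins most completely was sterol and fatty acid synthesis. Its genes are driven by the SREBP transcription factors, which are released when membrane sterols run low. Of 28 genes listed, 26 were tested, and all 26 were called higher with shRNA-4058 and none with shRNA-4057, where 14.4% of all genes were called in that direction. Among genes of at least 2 CPM, which all 26 are, that share was 23.2% (and 16.4% for the other direction). Their median log2 difference was -0.53, against 0 over all genes tested, and they ranged from -0.87 to -0.16. The summed level of the list was 9048 and 8904 CPM with shRNA-4057 and 12668 and 13108 CPM under shRNA-4058, against 11176 to 12351 CPM over the controls. The hairpin libraries thus lay on either side of the controls, and the libraries of shRNA-4057 were below all 4 controls for 22 of the 26 genes and overlapped them for 4. With shRNA-4058, 10 genes were above all controls, 13 overlapped them and 3 were below. Over all genes tested, shRNA-4057 was below the controls together with shRNA-4058 for 15.3%. It was below them with shRNA-4058 overlapping for 5.89% and with shRNA-4058 above for 0.885%.

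FASN, the fatty acid synthase, was at 562 and 529 CPM with shRNA-4057 and 963 and 1035 CPM under shRNA-4058, against 772 and 821 CPM in the scrambled and 1100 and 1118 CPM in the wild-type libraries (log2 difference -0.87, SE 0.044, edgeR adjusted p = 2.27e-13). INSIG1, the sterol-sensing retention factor of the SREBP complex, was at 526 and 518 CPM with shRNA-4057 against 836 and 866 CPM with shRNA-4058, with controls of 614 to 680 CPM (log2 difference -0.71, SE 0.035, adjusted p = 2.68e-14). DHCR7, which makes the final step to cholesterol in the Kandutsch-Russell pathway, was at 115 and 114 CPM against 188 and 194 CPM, with controls of 158 to 170 CPM (log2 difference -0.74). MSMO1, a sterol C4-methyl oxidase, was at 55.2 and 57.1 CPM against 99.0 and 105 CPM (log2 difference -0.86, SE 0.13). For INSIG1 and DHCR7 the controls lay between the hairpins, while for FASN and MSMO1 the shRNA-4058 libraries lay within the controls. The smallest differences were those of ELOVL6 and SREBF1, at -0.18 and -0.16 (both named after their values were seen).

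The list kept its direction in each setting tried. Between 25 and 26 members were called higher with shRNA-4058 and none with shRNA-4057, and the median stayed between -0.59 and -0.52, with each hairpin library left out, with an offset for GC content and length, with thinned counts and with DESeq2. In Jurkat, which shares no library with these, 24 of the 26 were called and all 24 were higher with shRNA-4058, with a median of -0.52 (33.9% of all genes were called between the Jurkat hairpins, in either direction). The exceptions were CYP51A1 (log2 difference -0.57, edgeR adjusted p = 0.0834) and SREBF1 (0.08, adjusted p = 0.208). The lists were chosen with earlier results of these data known, so this count is a description of the list and not a test of it. In Jurkat the direction also went with the deeper USP7 reduction by shRNA-4057, whereas in HSB-2 USP7 was nearly equal; whether either bears on the list was not tested.

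**Figure D3:**
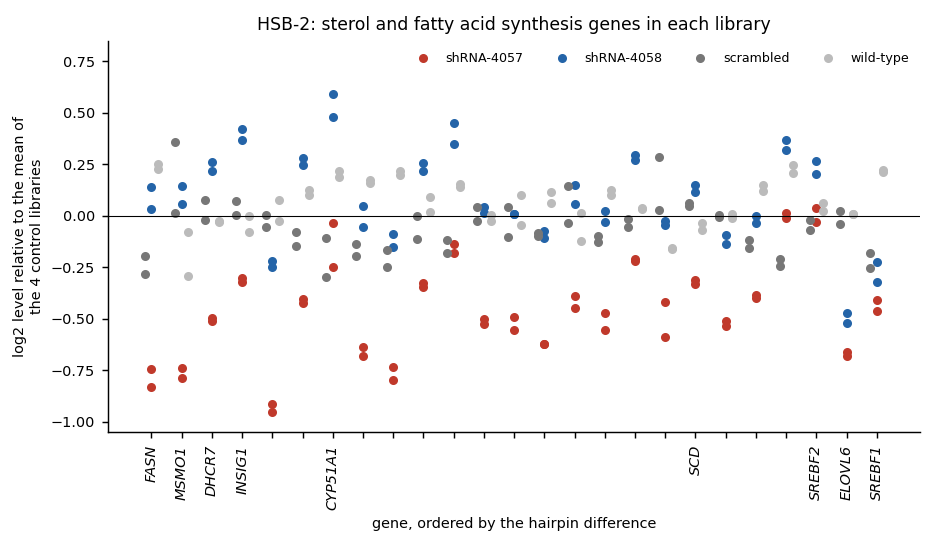
Each column is 1 gene, for 25 of the 26 sterol and fatty acid synthesis genes tested, with the genes named in the text labelled, ordered by the hairpin difference in HSB-2; points are single libraries, on a log2 axis relative to the mean log2 level of the 4 control libraries. The libraries of shRNA-4057 are below those of shRNA-4058 in every column drawn, and below all controls in 21 of the 25.

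To show the upstream sequence of genes of this list, their promoters were searched for the letters CACNCCAC, the core of the sterol regulatory element, on both strands; this motif was added after the list's values were seen. Of 19 members with a promoter in the RefSeq table (GRCh38.p14), 3 held it in the 250 bases before the start (15.8%), against 607 of 12698 genes tested (4.78%). A match is a description of the letters and not a binding site. The 3 promoters are printed as the 120 bases around the match, 5′ to 3′ on the strand of the gene, with the match in capitals, for INSIG1 (chr7:155297628-155297747, plus strand), SCD, the stearoyl-CoA desaturase (chr10:100347063-100347182, plus strand), and SREBF2, which encodes SREBP-2 itself (chr22:41832917-41833036, plus strand).
INSIG1: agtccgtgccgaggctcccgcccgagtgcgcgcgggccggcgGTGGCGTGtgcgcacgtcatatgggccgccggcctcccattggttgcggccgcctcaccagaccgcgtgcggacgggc
SCD: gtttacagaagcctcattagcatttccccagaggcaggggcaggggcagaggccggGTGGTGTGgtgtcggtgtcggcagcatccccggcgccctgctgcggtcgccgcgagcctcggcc
SREBF2: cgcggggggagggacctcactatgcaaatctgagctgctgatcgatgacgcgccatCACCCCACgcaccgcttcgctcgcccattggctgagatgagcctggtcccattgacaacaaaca
SREBF2 was at 648 and 618 CPM with shRNA-4057 against 726 and 759 CPM with shRNA-4058, and SCD at 1840 and 1817 CPM against 2471 and 2530 CPM, with log2 differences of -0.23 and -0.45.

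Hypoxia and glycolysis genes, many of them targets of HIF-1 and MYC, were next. Of 28 tested, 23 were called higher with shRNA-4058 and 2 with shRNA-4057, where 14.4% and 10.5% of all genes were, with a median of -0.27. Among genes of at least 2 CPM these shares were 23.2% and 16.4%. ALDOC, the brain-type aldolase, was at 437 and 422 CPM with shRNA-4057 against 667 and 689 CPM with shRNA-4058, and both were above controls of 255 to 291 CPM (log2 difference -0.66, SE 0.037, edgeR adjusted p = 2.29e-13). MXI1, an antagonist of MYC, was at 26.2 and 28.6 CPM against 39.2 and 38.3 CPM, with the scrambled libraries at 38.5 and 37.9 CPM and the wild-type at 20.9 and 22.6 CPM. ADM, the hypoxia-induced peptide adrenomedullin, was lower in level, at 1.47 and 1.94 CPM against 3.10 and 3.35 CPM (log2 difference -0.89). Among the 23 were the glycolytic enzymes HK2, PFKP, ALDOA, GAPDH, PGK1, ENO1, PKM and LDHA and the glucose transporters SLC2A1 and SLC2A3. The 2 members higher with shRNA-4057 were CA9, which was at no more than 0.135 CPM in any hairpin library, and EGLN3. In Jurkat this list did not lean to 1 side: 7 were called higher with shRNA-4057 and 11 with shRNA-4058, with a median of -0.03. Over all genes 33.9% were called in Jurkat, in either direction. Of the 28, 17 had a hairpin difference in HSB-2 that was called lower than that in Jurkat by the test of the difference between the lines. That test called 27.7% of all genes, in either direction.

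Immediate early and activation genes, which T cells switch on within minutes to hours of receptor or growth factor signals, leaned the same way. Of 24 tested, 16 were called higher with shRNA-4058 (all genes, 14.4%, and 23.2% of those of at least 2 CPM) and 1 with shRNA-4057, with a median of -0.23. DUSP5, a phosphatase of ERK, was at 20.4 and 19.9 CPM with shRNA-4057 against 28.4 and 26.8 CPM with shRNA-4058, FOSB at 13.7 and 12.7 CPM against 17.3 and 16.9 CPM, and FOSL1 at 4.47 and 4.98 CPM against 7.03 and 6.83 CPM. KLF2, a quiescence and trafficking factor of T cells, was the lone member called in the other direction. It was at 19.7 and 18.0 CPM with shRNA-4057 against 11.5 and 11.3 CPM with shRNA-4058 (log2 difference 0.72, SE 0.075, edgeR adjusted p = 4.02e-08). The controls differed from each other more than the hairpins did on this list: its summed level was 2341 and 2366 CPM in the scrambled and 3801 and 3902 CPM in the wild-type libraries, against 4330 and 4193 CPM with shRNA-4057 against 4824 and 5087 CPM with shRNA-4058. In Jurkat the lean was not the same, with 11 called higher with shRNA-4057 and 7 with shRNA-4058 (median 0.27). There 33.9% of all genes were called, in either direction.

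NF-kappaB and TNF targets split: of 19 tested, 9 were called higher with shRNA-4058, and 3, NFKB1 included, with shRNA-4057 (median -0.22), while in Jurkat 2 were called higher with shRNA-4058 and 9 with shRNA-4057. LTB, the membrane partner of lymphotoxin alpha, was at 117 and 110 CPM with shRNA-4057 against 161 and 178 CPM with shRNA-4058 (log2 difference -0.58, SE 0.051, edgeR adjusted p = 1.55e-09), so that it lay opposite to NFKB1. TNFAIP2 and CXCL8 were called too, but at most 0.822 CPM was reached by either, and CXCL8 was under the level of 3 counts in both shRNA-4057 libraries, so no fold is given for it. Among interferon-response genes, 13 of 32 were called higher with shRNA-4058, among them IFIT1, IFIT3, IFIT2, IFI6, ISG15 and BST2, and 2 with shRNA-4057 (IRF9 and EIF2AK2), with a median of -0.09. The calls of IRF9 and EIF2AK2 were lost with single hairpin libraries left out, as were those of some of the 13. The median ranged from -0.19 to -0.08 over the settings tried. The share called higher with shRNA-4058 was 14.4% over all genes and 23.2% over those of at least 2 CPM. In Jurkat, 10 of these genes were called in each direction, where 33.9% of all genes were called in either direction. IFIT3 was at 4.33 and 4.41 CPM with shRNA-4057, as against 8.21 and 8.01 CPM under shRNA-4058, 0.712 and 0.865 CPM in the scrambled and 3.20 and 3.09 CPM in the wild-type libraries (log2 difference -0.89, SE 0.12). IFI6 was at 13.5 and 12.7 CPM against 17.9 and 19.6 CPM. For these both hairpins were above the 4 controls.

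Over all genes 14.4% were called higher with shRNA-4058, and 23.2% over those of at least 2 CPM. NOTCH1 and MYC pathway genes had 9 of 18 called higher with shRNA-4058 and 2 with shRNA-4057 (median -0.28). The called ones with the largest differences were low in level: the NOTCH targets HES4 (0.502 and 0.290 against 1.45 and 1.85 CPM), DTX1 (0.735 and 1.17 against 2.62 and 2.35 CPM) and HEYL (1.10 and 1.15 against 2.12 and 1.93 CPM), and the ligand DLL4, which was under the level of 3 counts in 1 shRNA-4057 library. In Jurkat, 12 of the 18 were called higher with shRNA-4058 and 5 with shRNA-4057. Of 23 adhesion and trafficking genes, 12 were called higher with shRNA-4058, against the same 14.4% and 23.2%, and 2 with shRNA-4057 (median -0.13). In Jurkat this list leaned the other way, with 15 called higher with shRNA-4057 and 3 with shRNA-4058 (median 0.45). Over all genes 33.9% were called in Jurkat, in either direction. CD52, a GPI-anchored glycoprotein of lymphocytes, was at 71.4 and 68.2 CPM with shRNA-4057 against 117 and 120 CPM with shRNA-4058 (log2 difference -0.76, SE 0.052, edgeR adjusted p = 1.16e-11), above controls of 31.2 to 51.9 CPM. CD99 had the same order (327 and 312 against 409 and 431 CPM), and so did the chemokine receptor CCR4, at under 1 CPM, whereas CD38, the NAD glycohydrolase, was higher with shRNA-4057 (149 and 149 against 117 and 112 CPM).

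Other lists had more members called higher with shRNA-4057, with medians of at most 0.10. Of 29 DNA replication genes, 13 were called higher with shRNA-4057, where 10.5% of all genes were, and none with shRNA-4058 (median 0.10). Among genes of at least 2 CPM the share called higher with shRNA-4057 was 16.4%. CCNE2, the cyclin E2 of the G1/S transition, was at 26.5 and 26.0 CPM with shRNA-4057 against 15.4 and 16.3 CPM with shRNA-4058, with controls between at 18.4 to 22.4 CPM (log2 difference 0.74, SE 0.066, edgeR adjusted p = 2.52e-09). GINS1, of the replicative helicase, was at 65.9 and 68.3 against 51.8 and 54.3 CPM. POLA1, the catalytic subunit of DNA polymerase alpha, was at 80.4 and 82.4 against 67.0 and 64.8 CPM, and the checkpoint adaptor CLSPN at 134 and 139 against 115 and 111 CPM. For GINS1, POLA1 and CLSPN, shRNA-4058 was below all controls. The count of 13 became 7 without replicate 2 of shRNA-4058, and 20 with an offset for GC content and length. In Jurkat the list went the other way, with 24 of 29 called higher with shRNA-4058 and 2 with shRNA-4057. By the test of the difference, 24 differed between the lines. Over all genes 33.9% were called in Jurkat and 27.7% in the test between the lines, in either direction.

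The small RNA machinery, which handles hairpins themselves, had 8 of 16 members called higher with shRNA-4057 and 1 with shRNA-4058 (median 0.10). Over all genes the share called higher with shRNA-4057 was 10.5%, and 16.4% over those of at least 2 CPM. DICER1, which cuts hairpin precursors, was at 114 and 113 CPM with shRNA-4057 and 79.0 and 74.6 CPM under shRNA-4058, against 123 to 132 CPM in the controls (log2 difference 0.56, SE 0.047, edgeR adjusted p = 7.32e-10). DGCR8, the partner of DROSHA, was at 62.3 and 60.8 against 51.0 and 49.3 CPM, and AGO1, an Argonaute protein, at 165 and 164 against 140 and 136 CPM. Both hairpins were below the controls for DICER1 and DGCR8, with shRNA-4058 the lower. TARBP2, the Dicer partner, was the exception, at 19.2 and 18.0 against 21.9 and 22.6 CPM, and its call was lost without replicate 2 of shRNA-4057 (edgeR adjusted p = 0.0714) and with a replicate block and the GC and length offset together (adjusted p = 0.0504). The count of 8 ranged from 4 to 10 over the settings tried and was 4 without replicate 2 of shRNA-4057, 5 without its replicate 1 and 4 without replicate 2 of shRNA-4058. In Jurkat the list was more even, with 7 called higher with shRNA-4057 and 5 with shRNA-4058, where 33.9% of all genes were called in either direction. DICER1, DGCR8 and AGO1 were called higher with shRNA-4057 in Jurkat (log2 differences of 0.33, 0.23 and 0.15).

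Ribosome biogenesis genes were below all controls with both hairpins for 21 of 24 members each, and between the hairpins 7 were called higher with shRNA-4057 and 2 with shRNA-4058 (0 to 11 and 0 to 2 over the settings tried), by at most 0.22 on the log2 scale. Over all genes tested, 10.5% and 14.4% were called in these directions, and 16.4% and 23.2% over those of at least 2 CPM. Both hairpins were below all controls for 15.3% of all genes. For 5.89% shRNA-4057 was below and shRNA-4058 overlapped, and for 10.6% shRNA-4058 was below and shRNA-4057 overlapped. In Jurkat 22 of the 24 ribosome biogenesis genes were called, all higher with shRNA-4058, and 33.9% of all genes were called there, in either direction. Without replicate 2 of shRNA-4058 none was called higher with shRNA-4057, and 4 were with either replicate of shRNA-4057 left out in turn. Targets of ATF4, the amino acid stress factor, had 7 of 23 called higher with shRNA-4057 and 2 with shRNA-4058, against 10.5% and 14.4% of all genes, and 13 were called higher with shRNA-4057 under the GC and length offset. In Jurkat 3 were called higher with shRNA-4057 and 16 with shRNA-4058. Histone genes (6 and 1 of 18) and abundant noncoding RNAs (5 and 1 of 13, or 3 and 1 without replicate 2 of shRNA-4058) had more members called higher with shRNA-4057, which is given first in each pair. Counts of 3 and 1 of 24 ribosomal protein genes, 3 and 8 of 27 mitosis genes, 5 and 7 of 18 unfolded protein response genes, 2 and 6 of 27 deubiquitylases, 4 and 6 of 16 MHC class I pathway genes and 3 and 3 of 15 BCL2 family genes were found in the others. Several of these counts rested on single libraries. Without replicate 2 of shRNA-4058, 13 mitosis genes were called higher with shRNA-4058, and 2 unfolded protein response genes and no ribosomal protein gene with shRNA-4057. With any 1 of the other 3 hairpin libraries left out, 3 unfolded protein response genes were called higher with shRNA-4057, 3 deubiquitylases with shRNA-4058 and at most 1 ribosomal protein gene with shRNA-4057. With either replicate of shRNA-4057 left out in turn, 1 BCL2 family gene was called higher with shRNA-4058.

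Transcripts of 26 substrates and partners of USP7 were tested, and 7 were called higher with shRNA-4057 and 2 with shRNA-4058, against 10.5% and 14.4% of all genes, with a median of 0.02. Without replicate 2 of shRNA-4058, 4 were called higher with shRNA-4058. EZH2, the Polycomb methyltransferase, was at 85.1 and 84.1 CPM with shRNA-4057 against 68.9 and 67.3 CPM with shRNA-4058 (log2 difference 0.31). DNMT1, the maintenance DNA methyltransferase, was at 314 and 318 against 381 and 393 CPM (log2 difference -0.29), and MGA, of a noncanonical Polycomb complex, at 172 and 184 against 155 and 141 CPM. Targets of p53, which USP7 and its substrate MDM2 regulate, were divided, with 7 of 26 called higher with shRNA-4057 and 5 with shRNA-4058, where 16.4% and 23.2% of genes of at least 2 CPM were. The 7 became 3 without replicate 2 of shRNA-4058, and the 5 became 3 without replicate 1 of shRNA-4057. CDKN1A, the cell cycle inhibitor p21, was at 97.6 and 95.3 CPM with shRNA-4057 against 147 and 153 CPM with shRNA-4058 (log2 difference -0.64, SE 0.054, edgeR adjusted p = 7.75e-10). TP53INP1 was in the other direction, at 107 and 116 against 76.7 and 78.2 CPM (log2 difference 0.53, SE 0.056). SESN1 was higher with shRNA-4058 and SESN2, of the same stress-responsive family, with shRNA-4057 (log2 differences -0.45 and 0.36). Of the 26 targets, 20 were above all 4 controls with shRNA-4057 and 20 with shRNA-4058. Over all genes tested, both hairpins were above them for 15.6%. A further 4.74% had shRNA-4057 above and shRNA-4058 overlapping, and 9.80% had shRNA-4058 above and shRNA-4057 overlapping.

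**Figure D4:**
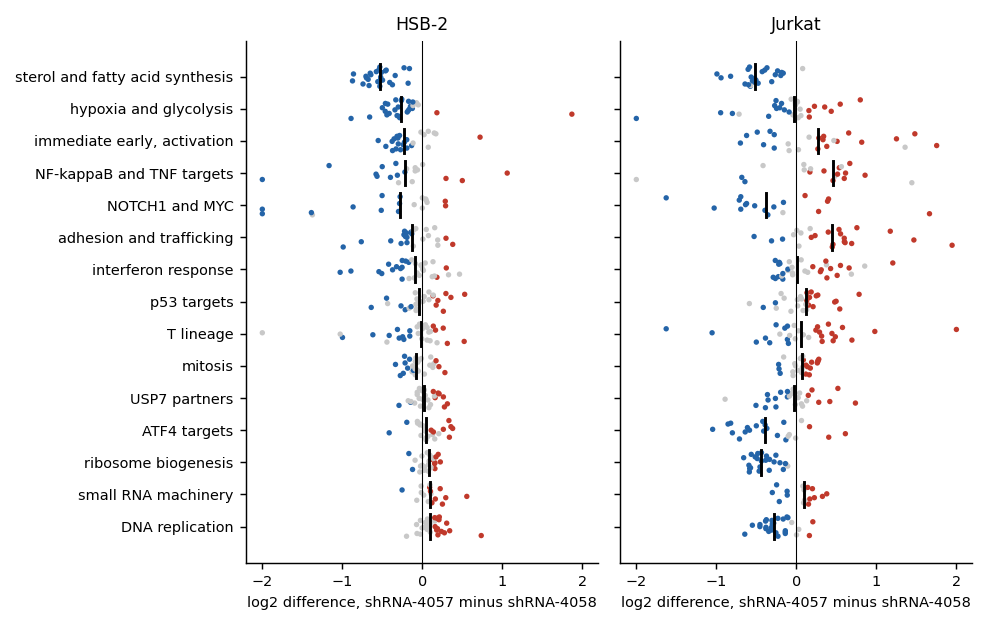
Each point is a member of a gene list, at its log2 difference of shRNA-4057 minus shRNA-4058 in HSB-2 (left) and Jurkat (right); values beyond 2 are drawn at 2, black bars are list medians, red and blue points were called and grey points were not. Sterol and fatty acid synthesis lies on the shRNA-4058 side in both lines, with medians of -0.53 and -0.52, while DNA replication is at 0.10 in HSB-2 and -0.28 in Jurkat.

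T-lineage genes checked the label of the cells. HSB-2 expressed CD3E at 457 and 449 CPM with shRNA-4057 against 457 and 454 CPM with shRNA-4058, and TAL1 at 128 and 125 against 130 and 134 CPM, neither of which was called (both were named to check the labels). Of 30 members, 5 were called higher with shRNA-4057 and 9 with shRNA-4058, against 10.5% and 14.4% of all genes. Among genes of at least 2 CPM these shares were 16.4% and 23.2%. Under the GC and length offset the counts were 10 and 7, so that the order of the counts turned. CD7 was at 270 and 257 against 336 and 367 CPM (log2 difference -0.41). CD8A was at 4.11 and 3.90 against 5.81 and 6.55 CPM, CD4 was at no more than 0.356 CPM, and CD2 was higher with shRNA-4057 (4.91 and 4.96 against 3.51 and 3.29 CPM). Of the 7 E-protein targets listed, CD69 was the lone one called, at 109 and 116 CPM with shRNA-4057 against 141 and 131 CPM with shRNA-4058. PTCRA and RAG2 had no count in the 4 hairpin libraries, and RAG1 was at most at 0.115 CPM, so a hairpin difference was not detectable for them.

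Markers of other cell types were examined as lists, in HSB-2. Over all genes tested, 10.5% were called higher with shRNA-4057 and 14.4% with shRNA-4058. Among genes of at least 2 CPM these shares were 16.4% and 23.2%. Cytotoxic and NK genes had none called higher with shRNA-4057 and 4 of 15 with shRNA-4058: PRF1 (0.630 and 0.348 against 1.49 and 1.39 CPM), CST7, TBX21 and NKG7 (197 and 189 against 227 and 237 CPM). Their summed level was 494 and 485 CPM with shRNA-4057 against 522 and 542 CPM with shRNA-4058, and the calls of TBX21 and NKG7 were lost without replicate 2 of shRNA-4057 (edgeR adjusted p = 0.0782 and 0.0706). The B-lineage sum was 22.2 and 22.6 against 29.9 and 31.2 CPM, of which IGLL1 made up most (18.6 and 18.3 against 24.9 and 26.9 CPM, the lone call of 10 tested), with MS4A1 and BLNK at 0 in all 8 HSB-2 libraries. The myeloid sum was 20.8 and 21.3 against 17.2 and 18.2 CPM, nearly all of it CEBPE, which was called higher with shRNA-4057 (ITGAM, under 0.2 CPM, was called higher with shRNA-4058, and S100A8 was at 0). The erythroid sum of 1394 and 1416 against 1519 and 1501 CPM was nearly all TFRC, which dividing cells of many kinds express; EPOR, ITGA2B and HBA1 were called higher with shRNA-4058, and HBB, HBG1 and PF4 were at 0 in the HSB-2 libraries. The epithelial and kidney sum of 2919 and 2819 against 3028 and 3154 CPM was nearly all VIM, which T cells also express, with VIM called higher with shRNA-4058 and CDH2 with shRNA-4057, and with EPCAM and KRT19 at 0. The part of other cells in the gene differences was not tested.

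Whether the same genes told the hairpins apart in Jurkat was examined gene by gene. In Jurkat 7811 genes were called, and 821 differed by at least 2-fold (3.56%). Of the 561 genes of at least 2-fold in HSB-2, 274 had the same sign in Jurkat (48.8%), and over all 23063 genes tested 50.4% had. Called in Jurkat were 154 of the 561 (27.5%), with 87 in the same and 67 in the opposite direction. Over all genes tested 33.9% were called in Jurkat, 4287 with the same sign as in HSB-2 and 3524 with the opposite sign. Across these 561 genes, Pearson's r of the log2 differences was -0.07, as a description across genes, which are not independent replicates. Of the 5739 genes called in HSB-2, 3171 (55.3%) were called in the test of the difference between the lines, against 27.7% of all genes, but these genes were chosen for a called difference in HSB-2, which enters that test. Of the 5739, 56.2% had the same sign in Jurkat. Called in Jurkat were 52.8% of them, against 33.9% of all genes, with 1817 in the same and 1214 in the opposite direction. These 2 shares are not matched for level. The median level in the HSB-2 hairpin libraries was 30.3 CPM for genes called higher with shRNA-4057 and 29.6 CPM for those higher with shRNA-4058. Over all genes tested it was 3.22 CPM.

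Above 2 CPM in HSB-2 and protein-coding, 8 genes were called with at least 2-fold in the same direction in both lines. TEX19 was at 1.71 and 1.22 CPM with shRNA-4057 against 4.25 and 4.08 CPM with shRNA-4058 in Jurkat, MPZL3 at 5.73 and 7.02 against 2.59 and 2.43 CPM, and COX6B2 at 0.220 and 0.107 against 0.473 and 0.517 CPM. CTSV, the cysteine protease cathepsin V, was at 1.26 and 1.35 against 3.61 and 2.72 CPM in HSB-2 and 3.67 and 3.92 against 7.48 and 8.36 CPM in Jurkat. NRTN, the neurotrophic factor neurturin, and the adaptor SH2D5 had log2 differences of -1.04 and -1.02 in HSB-2 and of -1.02 and -1.10 in Jurkat. TEX19, COX6B2, CTSV, NRTN and SH2D5 were thus higher with shRNA-4058 and MPZL3 with shRNA-4057 in both lines. The other members, HRH2 and KRT81, were at or under 0.158 and 0.0394 CPM in every Jurkat hairpin library, so their Jurkat side rests on very few counts.

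In opposite directions, 4 genes were called with at least 2-fold in both lines, all higher with shRNA-4058 in HSB-2 and with shRNA-4057 in Jurkat, of which 3 are described. CACNA1H, a T-type calcium channel subunit, was at 4.13 and 4.30 CPM with shRNA-4057 against 8.57 and 10.1 CPM with the other hairpin in HSB-2, and at 106 and 97.8 CPM against 48.8 and 51.2 CPM in Jurkat. The test of the difference between the lines gave -2.14 (SE 0.10, edgeR adjusted p = 5.39e-15). MMP9, a gelatinase, was at 1.81 and 1.59 against 4.46 and 5.05 CPM in HSB-2, and CCR1 at 1.12 and 0.541 against 2.67 and 2.37 CPM, both at low level in Jurkat. CACNA1H and MMP9 also overlap genes on the other strand.

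GC content moved with the hairpin difference. The median GC content of the transcript was 44.9% for genes called higher with shRNA-4057 and 53.7% for genes called higher with shRNA-4058, against 48.5% over all genes tested. Among protein-coding genes divided into 5 equal groups by GC content, the share called higher with shRNA-4057 went from 18.7% in the lowest to 4.13% in the highest group, and the share called higher with shRNA-4058 went from 11.6% to 31.2%. The median log2 difference went from 0.03 to -0.12 in HSB-2 and in the opposite direction in Jurkat, from -0.12 to 0.15. With an offset for GC content and length, 2977 genes were called higher with shRNA-4057 and 3896 higher with shRNA-4058. The median GC content was 48.1% for the sterol and fatty acid list, 52.7% for hypoxia and glycolysis, 54.1% for immediate early genes and 48.6% for DNA replication. With the offset, the numbers called higher with shRNA-4058 were 25, 24 and 14 in the first 3, and 20 DNA replication genes were called higher with shRNA-4057.

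**Figure D5:**
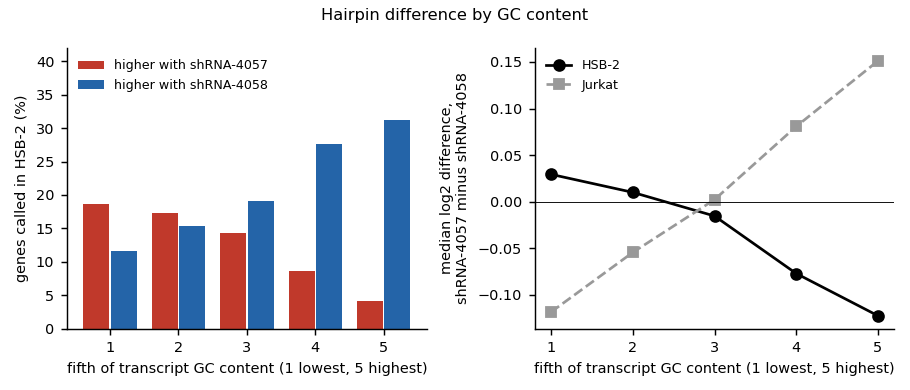
Protein-coding genes tested, in 5 equal groups by transcript GC content from lowest (1) to highest (5): the percentage called in HSB-2 in each direction (left) and the median log2 difference in each line (right). The bars for shRNA-4058 go from 11.6% to 31.2%, and the line of HSB-2 slopes down where that of Jurkat slopes up.

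Promoters of the 2-fold genes were searched on both strands for 5 motifs, within 250 bases before and 50 after the start in the RefSeq table, which held 12700 of the genes tested, 50 of those higher with shRNA-4057 and 190 of those higher with shRNA-4058. The AP-1 letters TGANTCA were in 14% and 8.95% of these, against 4.82% of all. The interferon response element GAAANNGAA was in 14% and 4.21%, against 6.50% of all, and the E-box CAGCTG in 16% and 17.9%, against 17.4%. The cyclic AMP response element TGACGTCA was in 2.00% and 2.11%, against 3.06%, and the NF-kappaB letters GGAATTTCC in 4.00% and 0.526%, against 0.457%, or 2 promoters and 1 promoter. These shares describe letters, and no test was made of them.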

How the data were processed

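Total RNA was depleted of ribosomal RNA, made into stranded libraries (KAPA RiboErase) and sequenced on a NovaSeq 6000. The authors deposited raw counts per gene from HTSeq (version 0.6.1p1 in the submitters' processing notes) on hg19 alignments; the annotation release and strand setting are not given in the sources used here. Gene symbols came from the GENCODE annotation lifted to GRCh37, and 96.3% of genes tested had one. The deposited counts of all 16 libraries, as 8 groups of 2, were filtered (filterByExpr), scaled (TMM) and fitted with edgeR 4.0.16 in R 4.3.3 (robust quasi-likelihood, 8 residual degrees of freedom, Benjamini-Hochberg over 23063 genes). Contrasts were shRNA-4057 minus shRNA-4058 in HSB-2, the same in Jurkat, and their difference. On data simulated for the HSB-2 contrast over all genes tested, 172 of 200 changed genes were recovered, 99 of 100 at 2-fold. The changed genes were drawn only from those above a minimum mean level, so recovery at the lowest levels was not tested. The simulated spread followed the trend with level and not the spread of each gene. Apart from the 200 genes changed in HSB-2 shRNA-4057, all groups shared 1 mean per gene, unlike the data.

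Members, gene lists and rules were chosen with earlier results of these data known. Named were USP7, the 14 protein-coding genes highest and the 14 lowest by log2 difference among those called with at least 2 CPM in the higher hairpin and libraries that did not overlap, the genes of at least 2-fold in both lines, and up to 4 called members of a list by size. Other list members were named besides, such as the glycolytic enzymes, ISG15 and BST2, and were not chosen by these rules. Libraries of a group differed by more than sampling noise. Same-numbered hairpin libraries did not deviate together (correlation -0.17 in HSB-2). Alternatives were DESeq2 1.42.0 and its size factors, no filter, each hairpin library left out, a replicate block and an offset for GC content and length. Fewer libraries were also tried, as were counts of the HSB-2 hairpin libraries alone thinned to 1 depth. The level of 3 counts, used as a floor, covers counting error only. A few genes that the rules or lists hold are not reported here by name.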

Additional observations from a re-analysis of the deposited data

Results flagged for a closer look

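For 68 of the 94 genes reported from the rules, the hairpin difference in HSB-2 differed from that in Jurkat by the test of the difference itself (edgeR's quasi-likelihood test, largest adjusted p = 0.0499). Over all genes tested 27.7% were called in that test, but most of the 94 were chosen for the size of their HSB-2 difference, which enters it, so the 2 shares are not comparable. Values are the HSB-2 log2 difference minus the Jurkat one. In 24 of them the hairpins were called in opposite directions. Higher with shRNA-4058 in HSB-2 and with shRNA-4057 in Jurkat were CCR1 (-3.61), HBA1 (-3.56), DLL4 (-3.66), MMP9 (-2.81), PRF1 (-2.71), CACNA1H (-2.14), ZFYVE28 (-2.01), CST7 (-1.62), CCR4 (-1.44), NKG7 (-1.38), CD52 (-1.36), LTB (-1.09), TBX21 (-1.04), FOSB (-0.89), IFIT2 (-0.84), DUSP5 (-0.84), ALDOC (-0.82) and VIM (-0.32). The reverse held for CEBPE (1.19), CDH2 (0.80), POLA1 (0.59), CLSPN (0.53), GINS1 (0.48) and MGA (0.37). Some of the largest values belong to genes of very low level. CCR1 and MMP9 were at no more than 0.360 and 0.518 CPM in any Jurkat hairpin library, and DLL4 was near the floor in HSB-2.

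In the other 44 the hairpins were not called in opposite directions. The HSB-2 value was the higher for CA9 (2.58), GCSAM (1.70), GNB4 (1.23), ADM (1.22), ARSB (1.16), IGLL1 (0.80), TAF9B (0.80), USP7 (0.65), HDAC9 (0.65), TBCA (0.60), CCNE2 (0.57), KLF2 (0.56), NFKB1 (0.45), EZH2 (0.25), DICER1 (0.23), DNMT1 (0.21) and SESN2 (0.19). It was the lower for HRH2 (-2.74), ZBTB7B (-2.47), ITGAM (-2.19), CACNA1D (-2.08), BAIAP3 (-2.03), TLE6 (-2.01), CPNE5 (-1.97), TMEM59L (-1.74), ATP1B2 (-1.68), DAB2IP (-1.66), HES4 (-1.33), DTX1 (-1.22), KREMEN2 (-1.19), IFIT1 (-1.17), CD4 (-1.15), ITGA2B (-1.14), IFIT3 (-0.9997), CD8A (-0.71), HEYL (-0.58), NID2 (-0.50), TARBP2 (-0.35), IFI6 (-0.34), CD7 (-0.33), FASN (-0.32), CD69 (-0.30), MXI1 (-0.29) and TP53INP1 (-0.26). In Jurkat the hairpins also differed in USP7 itself, by -0.77 on the log2 scale, so the lines differ in the depth of the knock-down as well as in the cells, and these cannot be told apart.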

How the results depend on the processing

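USP7 kept its sign under every alternative, and its call was lost with thinned counts (-0.10), without replicate 1 of shRNA-4057 and without replicate 1 of shRNA-4058; over the libraries left out it ranged from -0.195 to -0.091. With 1 HSB-2 hairpin library left out, the genes called ranged from 3796 to 4521, those higher with shRNA-4057 from 1134 to 1888, and those at least 2-fold higher with shRNA-4057 from 141 to 264, in fits with fewer libraries. The replicate block gave 5502 genes called in HSB-2, 545 at least 2-fold, 7599 in Jurkat and 6129 that differed between the lines, and it changed no call of USP7. As same-numbered hairpin libraries correlated below -0.1, crossed numbers were tried after seeing the data and gave 5478 genes. With DESeq2's size factors 2064 genes were called higher with shRNA-4057 and 3815 with shRNA-4058, and with DESeq2 2101 and 3893. Of 93 other named genes none reversed and 81 were called under each alternative; CA9, CCR4, CD4, CDH2, DLL4, IFIT1, ITGAM, NKG7, TARBP2, TBX21, TNFAIP2 and VIM lost the call at least once. The 93 leave out some genes named in the text, among them IRF9 and EIF2AK2, whose calls were also lost with single hairpin libraries left out. With 2 libraries a group, and shRNA-4058 replicate 2 at 76602847 counts, differences of genes well below 1 CPM are the least certain.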
